A study of Rattus norvegicus with 6 samples.

Results

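The 10 genes described here encode blood transcription factors of the ETS, RUNX and MYB families and the RUNX partner subunit. They were taken by exact symbol from the 18286 genes of the deposited table and are *Fli1*, *Spi1*, *Ets1*, *Elf1*, *Etv6*, *Runx1*, *Runx2*, *Runx3*, *Cbfb* and *Myb*. All 10 had a row. The list was chosen from the RPKM of the DHC and control libraries, the same values given below, so the differences between conditions are given for these genes as a description and support nothing by themselves. The samples were cells of RBL-2H3, an established rat line from a basophilic leukemia that serves as a mast cell model, in 3 libraries labelled DHC (dihydrocoumarin, a lactone related to coumarin) and 3 control libraries whose treatment label is none. One protocol text covers both groups, with IgE against dinitrophenyl at 50 ng/ml for 12 h and then the antigen DNP-HSA at 100 ng/ml for 4 h. The labels give no dose or time for DHC and do not say whether the control cells received IgE and antigen. They call the tissue peripheral blood and the cell type blood corpuscle, and both groups are the same cultured line. Values are RPKM, read counts divided by the length of a gene's exons and by the library's total of reads assigned to genes, from 29190987 to 31299551 reads per library in the DHC group and from 29084976 to 34170922 in the control group.

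ETS proteins bind DNA through a winged helix-turn-helix domain that reads a GGAA core, and RUNX proteins through a Runt domain that reads TGTGGT. Cbfb does not contact DNA itself and raises the affinity of each RUNX protein for its site. Myb binds an AACNG core, keeps blood progenitors dividing and is usually lowered as they mature. In mouse and human blood cells these factors act together with GATA factors at shared enhancers, and PU.1, the product of *Spi1*, is needed with GATA-2 for mast cells to form in mice.

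A gene was tested with limma when its RPKM averaged 1 or more over the 6 libraries, which 9 of the 10 did. Of these, 5 passed an adjusted p of 0.05, corrected over all genes, as lower (*Fli1*, *Spi1*, *Ets1*, *Runx3* and *Myb*), 1 passed as higher (*Cbfb*) and 3 did not pass (*Elf1*, *Etv6* and *Runx1*). Over all 10667 genes tested, 34.5% passed, 16.1% as lower and 18.4% as higher, and the list was made with this contrast known, so nothing is read from the counts. With trimmed-mean scaling in place of totals 31.9% of all genes passed, 19.8% as lower and 12.0% as higher, and with median-of-ratios factors 32.0%, 19.2% as lower and 12.8% as higher; *Cbfb* then did not pass, and the 5 lower genes did. The median difference of the 9 genes was −0.71 on the log2(RPKM + 1) scale, beside 0.05 for all genes tested. Mean RPKM was lower with DHC by 2-fold or more for 4 of them, a size reached by 332 of all genes tested (3.11%). The values of the groups did not overlap for 7 of the 9, with DHC below control for 6 and above for 1, where 49.7% of all genes tested had no overlap (21.6% with DHC below and 28.1% with DHC above).

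**Figure D1:**
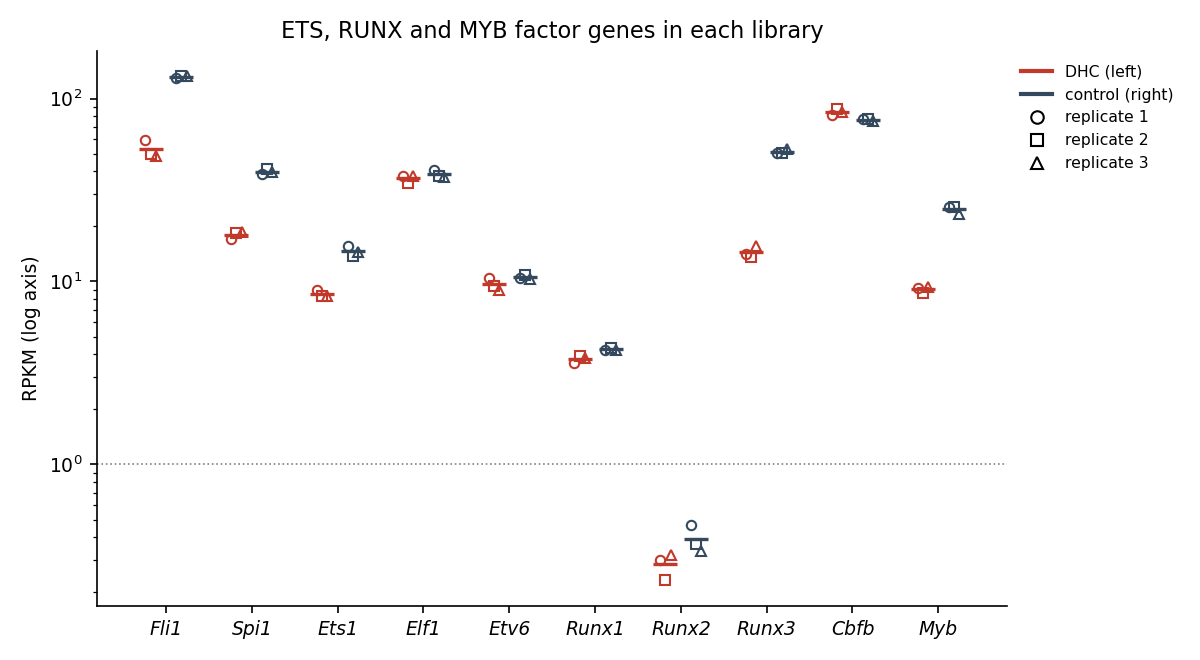
RPKM of the 10 genes in each library on a log axis, DHC (red) left of control (dark), with marker shapes for replicate numbers, bars for group means and a dotted line at 1 RPKM. For *Fli1*, *Spi1*, *Ets1*, *Runx3* and *Myb* the 3 DHC values lie well below the 3 control values, while *Elf1* and *Etv6* overlap and *Runx2* lies under the line in all libraries.

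*Fli1*, an ETS activator of megakaryocyte and vessel genes, was the most abundant of the 10 transcripts in control cells. It stood at 59.2, 50.0 and 48.8 RPKM in the DHC libraries, against 130.2, 132.7 and 132.8 RPKM in the control libraries. No value of either group came near the other group, and the coefficient of variation (CV) was 10.9% in the DHC libraries, where replicate 1 was the highest, and 1.14% in the control libraries. The means were 52.7 ± 5.72 RPKM with DHC and 131.9 ± 1.498 RPKM in control (SD, n = 3 each), 2.50-fold lower with DHC, a log2 difference of −1.31 ± 0.07 (SE). This was the 88th lowest log2 difference among the genes tested. In bulk RNA, fewer cells expressing a gene and less of its RNA in each cell cannot be told apart. On the rat build Rnor_6.0, which the files use, *Fli1* lies on the minus strand of chromosome 8 from 33543258 to 33661049, and every value here is over a gene's annotated exons as a whole.

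*Ets1*, an ETS factor best known from lymphocytes, is the next gene of the table on the same chromosome, from 33816386 to 33879625 on the plus strand, with 155 kb and no other listed gene between them. It stood at 8.996, 8.36 and 8.35 RPKM in the DHC libraries, against 15.6, 13.8 and 14.5 RPKM in the control libraries. The groups were apart here too, by a smaller ratio than for its neighbour. The means were 8.57 ± 0.369 RPKM with DHC and 14.6 ± 0.905 RPKM in control (SD, n = 3 each), 1.71-fold lower with DHC (log2 difference −0.71 ± 0.07, SE). The ratio of *Fli1* to *Ets1* within a library, which scaling between libraries cannot move, was 6.58, 5.99 and 5.83 with DHC and 8.34, 9.60 and 9.15 in control. Every DHC ratio lay below every control ratio. The list was chosen from these same values, so this is a description only.

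*Spi1* encodes PU.1, the ETS factor of the myeloid lineage. It lies on chromosome 3 from 79918969 to 79938301. The DHC libraries had 17.0, 18.3 and 18.7 RPKM and the control libraries 38.5, 41.3 and 39.6 RPKM. The groups were far apart, with the highest DHC value under the lowest control value. The means were 18.02 ± 0.869 RPKM with DHC and 39.8 ± 1.42 RPKM in control (SD, n = 3 each), 2.21-fold lower with DHC (log2 difference −1.10 ± 0.06, SE). *Gata2*, the GATA factor that works beside PU.1 in mast cells, fell further, so that the ratio of *Spi1* to *Gata2* was 0.258 ± 0.0169 with DHC and 0.116 ± 0.00170 in control (SD, n = 3 each).

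*Elf1* and *Etv6*, the remaining ETS members, did not pass the threshold. *Elf1*, an activator of blood and lymphoid genes on chromosome 15 (61826711 to 61868343), stood at 37.7, 34.7 and 37.7 RPKM with DHC, against 40.8, 37.8 and 37.3 RPKM in control. *Etv6*, a repressor needed for blood stem cells of the mouse bone marrow, lies on chromosome 4 (167754525 to 167992168). It stood at 10.4, 9.49 and 8.98 RPKM with DHC, against 10.5, 10.8 and 10.3 RPKM in control. The values of both genes overlapped between groups. The 95% interval of the log2 difference ran from −0.21 to 0.06 for *Elf1* and from −0.29 to 0.05 for *Etv6*, so a decrease of the size seen for *Ets1* lay outside both. Summed over the 5 ETS members, the level was 125.6 ± 6.80 RPKM with DHC and 235.5 ± 0.927 RPKM in control. *Fli1* made up 41.9% ± 2.33 of this sum with DHC and 56.0% ± 0.693 in control, and *Elf1* 29.2% ± 1.34 with DHC and 16.4% ± 0.796 in control (SD, n = 3 each).

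**Figure D2:**
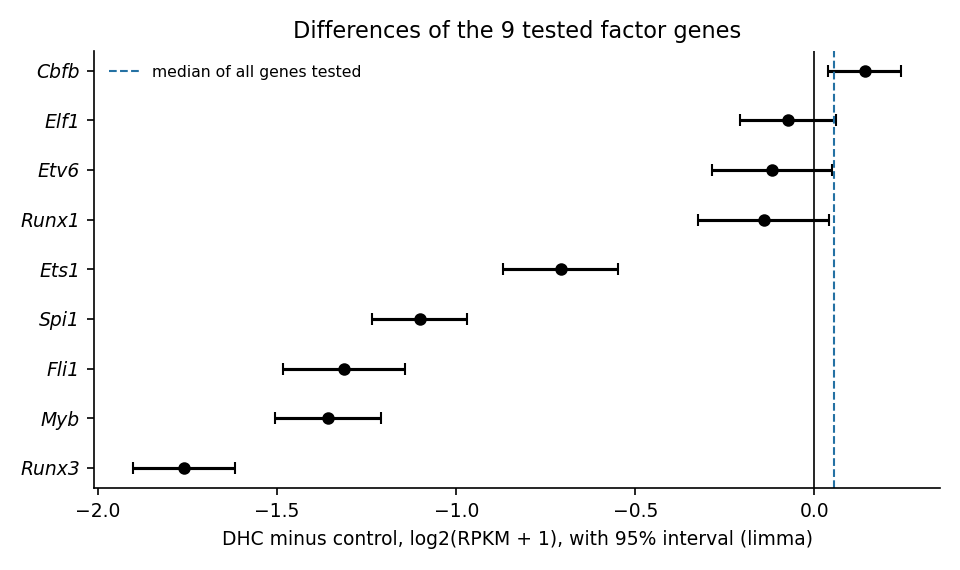
Difference of DHC minus control on the log2(RPKM + 1) scale for the 9 tested genes (points) with 95% intervals from limma (bars), a solid line at 0 and a dashed line at the median of all genes tested. *Runx3*, *Myb*, *Fli1* and *Spi1* lie beyond −1, *Ets1* at −0.71, and the intervals of *Runx1*, *Etv6* and *Elf1* include 0.

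The 3 RUNX genes stood at very different levels, and *Runx3* carried most of the family's transcripts. *Runx3*, known from T cells and sensory neurons, lies on chromosome 5 (153507093 to 153531137). It stood at 14.1, 13.7 and 15.6 RPKM in the DHC libraries, against 50.2, 50.7 and 53.2 RPKM in the control libraries. The ratio between the groups was the largest among the 10 genes. The means were 14.5 ± 0.982 RPKM with DHC and 51.3 ± 1.61 RPKM in control (SD, n = 3 each), 3.55-fold lower with DHC (log2 difference −1.76 ± 0.06, SE), which placed it 24th in order of decrease among all genes tested. *Runx1*, required for blood stem cells to arise in the embryo, lies on chromosome 11 (32769165 to 33003021) and stood between the other paralogs in level. Its values were 3.58, 3.93 and 3.79 RPKM with DHC, against 4.22, 4.34 and 4.22 RPKM in control, from 241 to 327 reads per library. The groups did not overlap, but *Runx1* did not pass the threshold, with a 95% interval of the log2 difference from −0.32 to 0.04.

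*Runx2*, the bone-forming member (chromosome 9, 18564927 to 18773092), was near 0 in both groups and lay under the filter on low values. It had 50, 41 and 53 reads with DHC (0.299, 0.232 and 0.322 RPKM), against 80, 60 and 65 reads in control (0.464, 0.366 and 0.337 RPKM). These counts are above the 3 reads taken as the floor of detection, and the gap between the nearest values, 0.322 with DHC and 0.337 RPKM in control, was smaller than the spread within either group.

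Within each library the makeup of the RUNX transcripts, per kilobase, differed between the groups. *Runx3* gave 78.5%, 76.7% and 79.1% of the summed RUNX level in the DHC libraries, against 91.5%, 91.5% and 92.1% in the control libraries. *Runx1* gave 19.9%, 22.03% and 19.3% with DHC, against 7.69%, 7.84% and 7.32% in control. The share of *Runx1* was thus higher with DHC in all libraries while its own mean level was lower. The summed level was 18.5 ± 1.01 RPKM with DHC and 56.0 ± 1.53 RPKM in control (SD, n = 3 each).

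*Cbfb*, the shared partner of the RUNX proteins, lies on chromosome 19 (37127508 to 37171069) and was the only gene of the 10 with a higher mean with DHC. It stood at 81.6, 87.2 and 84.9 RPKM in the DHC libraries, against 77.6, 76.9 and 75.3 RPKM in the control libraries. The groups did not overlap, by a margin smaller than the range within the DHC group. The means were 84.6 ± 2.85 RPKM with DHC and 76.6 ± 1.16 RPKM in control (SD, n = 3 each), 1.10-fold higher with DHC (log2 difference 0.14 ± 0.04, SE). This call was not stable: it ended under 8 of 18 alternatives, among them scaling by the upper quartile (log2 difference 0.14), trimmed means (0.08) or median-of-ratios factors (0.08), and leaving out DHC replicate 2 (0.12), DHC replicate 3 (0.14), control replicate 1 (0.15), control replicate 2 (0.14) or control replicate 3 (0.13). The ratio of *Cbfb* to the summed RUNX level was 4.53, 4.89 and 4.31 with DHC, against 1.41, 1.39 and 1.305 in control. That ratio does not depend on the scaling, and its lowest DHC value was above 3 times its highest control value. It mostly restates the difference in *Runx3*. The summed RUNX level was 18.5 RPKM with DHC and 56.0 RPKM in control, of which *Runx3* gave 14.5 and 51.3 RPKM. *Cbfb* itself differed 1.10-fold.

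**Figure D3:**
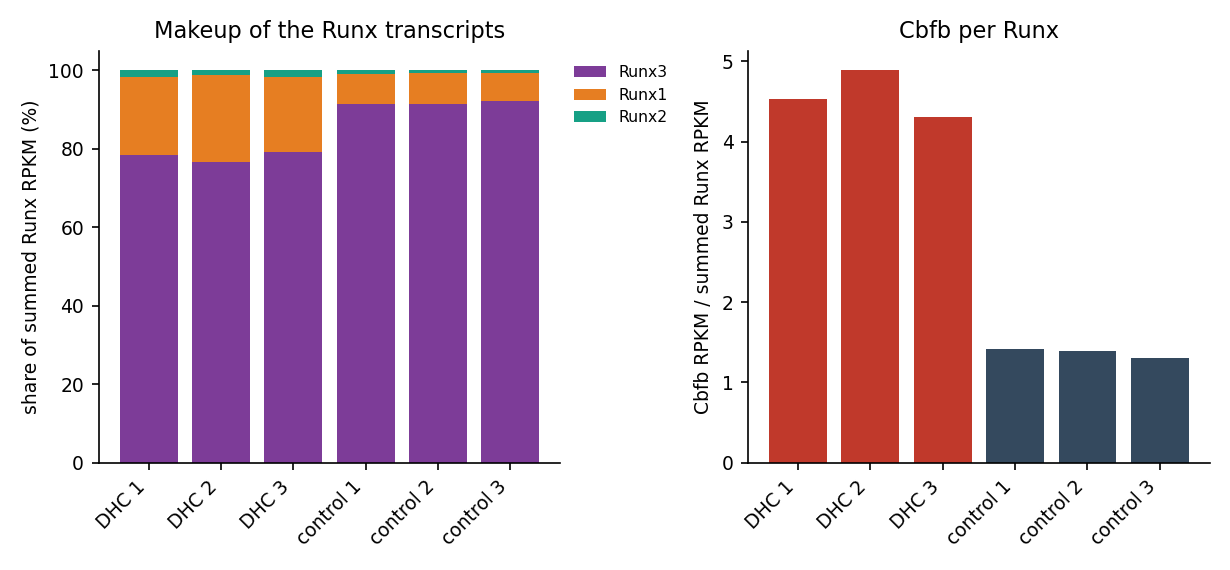
Left, the share of *Runx3*, *Runx1* and *Runx2* in their summed RPKM in each library (percent); right, the ratio of *Cbfb* RPKM to that sum in each library, DHC libraries first. *Runx1* takes 19.3% to 22.03% in DHC libraries and 7.32% to 7.84% in control libraries, and the *Cbfb* ratio lies between 4.31 and 4.89 with DHC, against 1.305 to 1.41 in control.

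Of the promoter windows of the RUNX genes and *Cbfb*, 5 are shown because each RUNX protein pairs with Cbfb and the ratios of these genes differed between the groups. The windows come from RefSeq on the build GRCr8, not the build of the files, and cover 250 bases before to 50 after an annotated start. *Elf1*, *Runx1*, *Runx2*, *Runx3* and *Cbfb* were matched by symbol, *Runx2* and *Runx3* with 2 windows each. *Fli1*, *Spi1*, *Ets1*, *Etv6* and *Myb* were not matched. Capitals mark matches on either strand. The ETS motif searched was GGAAG. The motif searched for RUNX proteins was TGTGGT. For Myb the letters AACTG were searched, and for GATA factors, the partners described further on, AGATAA. No match overlaps another in these windows. Sequences run 5′ to 3′ on the gene's strand.
Runx3, upstream start (chr5:152644020-152644319, plus strand): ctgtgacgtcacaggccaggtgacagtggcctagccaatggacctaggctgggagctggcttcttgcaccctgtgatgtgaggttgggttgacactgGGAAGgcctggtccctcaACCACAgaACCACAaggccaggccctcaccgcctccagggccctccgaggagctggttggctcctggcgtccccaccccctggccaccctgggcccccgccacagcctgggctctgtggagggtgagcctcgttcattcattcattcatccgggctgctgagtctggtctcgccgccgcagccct
Runx3, downstream start (chr5:152677396-152677695, plus strand): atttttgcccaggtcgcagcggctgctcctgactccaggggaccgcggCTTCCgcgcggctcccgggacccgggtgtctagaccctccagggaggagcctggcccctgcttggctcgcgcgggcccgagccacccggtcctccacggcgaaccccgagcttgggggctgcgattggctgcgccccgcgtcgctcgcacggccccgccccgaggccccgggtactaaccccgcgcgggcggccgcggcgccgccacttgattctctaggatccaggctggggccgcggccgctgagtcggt
Runx2, upstream start (chr9:23664808-23665107, plus strand): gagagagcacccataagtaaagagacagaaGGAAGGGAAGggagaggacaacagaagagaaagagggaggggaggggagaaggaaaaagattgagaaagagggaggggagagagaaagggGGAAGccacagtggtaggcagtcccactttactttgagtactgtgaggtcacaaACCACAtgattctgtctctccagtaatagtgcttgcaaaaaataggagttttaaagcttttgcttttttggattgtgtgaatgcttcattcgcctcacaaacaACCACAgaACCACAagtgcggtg
Runx1 (chr11:45421276-45421575, minus strand): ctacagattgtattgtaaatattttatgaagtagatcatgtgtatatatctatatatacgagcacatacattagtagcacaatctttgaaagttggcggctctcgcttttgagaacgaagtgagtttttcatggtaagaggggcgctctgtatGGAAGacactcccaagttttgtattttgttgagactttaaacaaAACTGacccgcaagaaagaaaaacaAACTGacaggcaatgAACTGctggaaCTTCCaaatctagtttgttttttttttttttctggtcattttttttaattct
Cbfb (chr19:49958846-49959145, plus strand): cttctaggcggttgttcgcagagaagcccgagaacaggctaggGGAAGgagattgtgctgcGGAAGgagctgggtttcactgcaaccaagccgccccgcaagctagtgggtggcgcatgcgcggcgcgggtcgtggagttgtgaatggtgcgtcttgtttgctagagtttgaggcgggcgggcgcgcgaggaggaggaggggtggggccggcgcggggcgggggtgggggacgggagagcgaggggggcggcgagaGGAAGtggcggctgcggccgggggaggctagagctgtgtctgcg

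The upstream *Runx3* window held 2 RUNX matches, both as the reverse complement ACCACA, with their first bases at −135 and −127 from the start. The upstream *Runx2* window held 3, at −76, 28 and 36. In both windows a couple of these lay 2 bases apart, in the form ACCACANNACCACA. That arrangement, looked for after the sequences had been seen, was present in 4 of 33469 windows of 300 bases (0.0120%), those of *Runx3*, *Runx2*, *Ly6i* and *Or7c19*. At least 1 TGTGGT was present in 17.3% of all windows and at least 2 in 2.02%. The downstream *Runx3* window and the *Runx1* and *Cbfb* windows had no RUNX match. An ETS match, present in 70.1% of all windows, occurred in each of the 5 windows printed, 3 times each in that of *Cbfb* and the upstream one of *Runx2*. The downstream *Runx2* window, not printed, had 1 ETS match and no other. The *Runx1* window had 3 MYB matches, which 46.0% of all windows have at least once. None of them held AGATAA, found in 11.6% of all windows. The files do not say which start the reads came from, and a match of letters is not a bound site. The *Runx3* row spans 24.0 kb on Rnor_6.0, less than the distance between its 2 windows on GRCr8. Unless the builds differ there, its counted exons do not include both starts.

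*Myb* encodes the founding member of its family and lies on the minus strand of chromosome 1 (16659442 to 16687817). It stood at 9.17, 8.68 and 9.36 RPKM in the DHC libraries, against 25.5, 25.6 and 23.3 RPKM in the control libraries. The lowest control value was more than 2 times the highest DHC value. The means were 9.07 ± 0.354 RPKM with DHC and 24.8 ± 1.30 RPKM in control (SD, n = 3 each), 2.74-fold lower with DHC (log2 difference −1.36 ± 0.06, SE). No other row of the table shares exon bases with any of the 10 genes. The strand setting of the counting was not given, so reads from antisense transcripts with no row could not be separated.

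The order of levels, which compares genes per kilobase within a group, differed between the groups. In the DHC libraries it ran *Cbfb*, *Fli1*, *Elf1*, *Spi1*, *Runx3*, *Etv6*, *Myb*, *Ets1*, *Runx1* and *Runx2*. In the control libraries it ran *Fli1*, *Cbfb*, *Runx3*, *Spi1*, *Elf1*, *Myb*, *Ets1*, *Etv6*, *Runx1* and *Runx2*. Neighbours in the order had values that did not overlap for 7 of 9 steps with DHC and for 8 of 9 in control. The exceptions were *Etv6* with *Myb* and *Myb* with *Ets1* in DHC cells, and *Spi1* with *Elf1* in control cells. *Fli1* stood above 90.6% of all rows of the table with DHC and above 96.0% in control, *Cbfb* above 93.9% with DHC and 93.3% in control, and *Runx1* above 55.7% with DHC and 57.4% in control. Within groups the CV ranged from 3.37% (*Cbfb*) to 16.4% (*Runx2*) with DHC and from 1.14% (*Fli1*) to 17.1% (*Runx2*) in control.

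**Figure D4:**
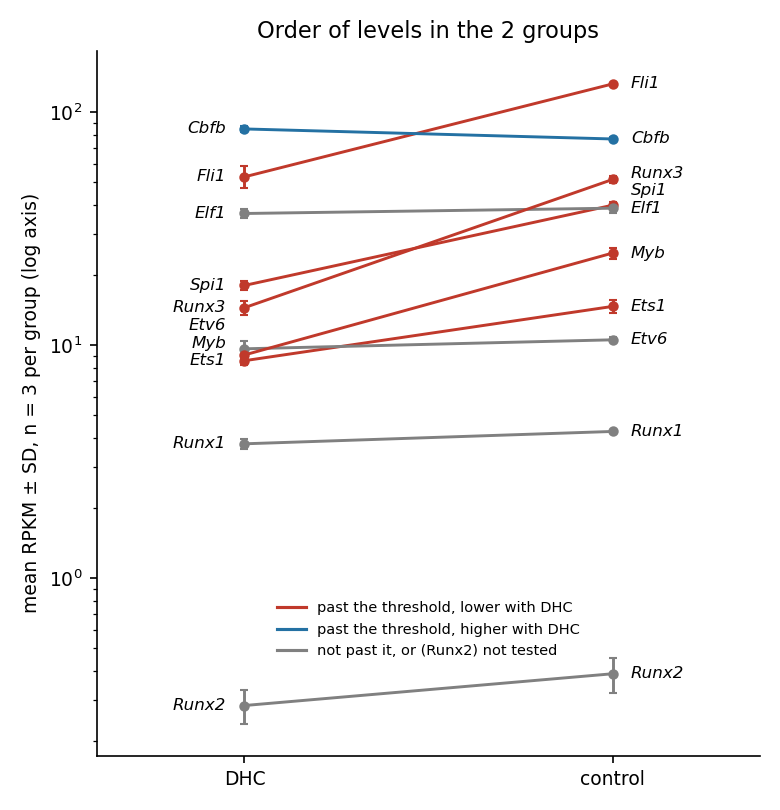
Mean RPKM with SD (n = 3 each) of the 10 genes in DHC cells (left) and control cells (right) on a log axis, with lines joining the same gene. *Cbfb* tops the DHC order at 84.6 RPKM and *Fli1* the control order at 131.9 RPKM, and *Runx3* is in the fifth place with DHC and in the third in control.

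By Pearson correlation of log2(RPKM + 1) over the 6 libraries, the genes most like *Runx3*, which had the largest decrease, were *Ccdc184* (r = 0.999), *Disp1* (0.999) and *Sptbn1* (0.999). Those most like *Cbfb* were *Abracl* (0.998), *Igbp1* (0.996) and *Zfp180* (0.995). The libraries form 2 groups, so r mostly repeats the gap between them, and 833 and 181 genes had an r above 0.95 with *Runx3* and *Cbfb*.

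The relatives, cofactors, partners and target genes of these factors were described through 9 lists of 160 gene symbols, 12 of them in more than 1 list. Target lists follow work in mouse and human blood cells, except that the ETS and FLI1 list also holds genes of vessel cells such as *Tek*. Of the 160 symbols 100 were tested, of which 38 were lower and 17 higher with DHC, where 16.1% of all genes tested were lower and 18.4% higher. The lists were written with earlier results of these data known, so this share is a description of them.

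The list of other ETS genes also holds *Gabpb1*, the non-ETS partner subunit of *Gabpa*. Of its 22 genes 16 had a row and 9 were tested, of which 3 ETS genes fell and *Gabpb1* rose (median log2 difference 0.02, beside 0.05 for all genes tested). *Elk3*, a partner of serum response factor that can repress its targets, stood at 5.61, 4.201 and 4.60 RPKM with DHC, against 19.7, 15.9 and 16.1 RPKM in control. It fell 3.58-fold (log2 difference −1.65 ± 0.12, SE, limma adjusted p = 6.86e-05), a ratio close to that of *Runx3*. *Erf*, a repressor, fell 1.93-fold to 7.91 ± 0.685 RPKM with DHC, against 15.2 ± 0.676 RPKM in control (adjusted p = 0.000186). *Elf4*, a close relative of *Elf1*, fell 1.87-fold (0.000566). The rise of *Gabpb1* was 1.22-fold (0.0458), a call that 11 of 18 alternatives ended, each omission of a single library among them (0.0650 to 0.141). The level of *Gabpa* itself was 24.2 ± 1.97 RPKM with DHC and 21.5 ± 1.95 RPKM in control (0.173), and that of *Etv3*, a repressor, 21.2 ± 0.537 RPKM with DHC and 21.0 ± 0.625 RPKM in control (0.839).

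Of 20 symbols listed for RUNX cofactors 12 were tested, 3 fell and 4 rose (median −0.01). *Cbfa2t3*, a corepressor known as ETO2 that sits in GATA and TAL1 complexes, stood at 2.99, 2.06 and 2.29 RPKM with DHC, against 8.85, 8.49 and 8.85 RPKM in control. It fell 3.57-fold (log2 difference −1.51 ± 0.11, SE, limma adjusted p = 7.64e-05). The Groucho corepressors, which bind the C-terminal end of RUNX proteins, include *Tle3*, which rose 2.01-fold to 7.58 ± 0.637 RPKM with DHC, against 3.77 ± 0.543 RPKM in control (adjusted p = 0.000929). *Aes*, a short relative that can block them, rose 1.35-fold (0.000480), *Tle4* did not pass, and *Tle1* and *Tle2* lay under the filter. *Hdac1*, a histone deacetylase, rose 1.18-fold to 149.7 ± 1.16 RPKM with DHC, against 127.3 ± 2.45 RPKM in control (0.00315). *Sin3a*, a scaffold of deacetylase complexes, was at 72.7 ± 1.72 RPKM with DHC and 73.4 ± 1.14 RPKM in control (limma adjusted p = 0.819), and *Prmt1* at 110.8 ± 10.8 RPKM with DHC and 115.9 ± 11.7 RPKM in control (0.627).

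Of 11 MYB relatives and cofactors, all tested, 2 fell and 2 rose (median 0.03). *Chd4*, a nucleosome remodeller, fell 1.55-fold to 186.1 ± 5.36 RPKM with DHC, against 288.2 ± 6.71 RPKM in control (limma adjusted p = 4.79e-05). *Men1*, which joins Myb to the methyltransferase Kmt2a, fell 1.31-fold (0.00441). *Taf12*, a subunit of TFIID that Myb uses as a coactivator, rose 1.53-fold (0.00211), and *Mbd2* 1.15-fold (0.0477), a call that 10 of 18 alternatives ended. Neither of the paralogs passed: *Mybl2*, a cell cycle factor, had a log2 difference of 0.20 and *Mybl1* of −0.06. *Crebbp* and *Ep300*, the acetyltransferases that bind Myb, differed by −0.00 and 0.10 and did not pass either, the level of *Psip1* was 271.0 ± 9.74 RPKM with DHC and 263.7 ± 11.4 RPKM in control (0.558), and that of *Mybbp1a* 73.0 ± 4.74 RPKM with DHC and 71.6 ± 8.52 RPKM in control (0.816).

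Of 27 partner factors 19 were tested, 10 fell and 2 rose (median −0.30). The lowest p-values belonged to *Gata2*, *Gfi1*, *Tal1* and *Gata1*, which fell 4.93-, 10.0-, 2.36- and 2.36-fold (limma adjusted p = 5.07e-07, 5.59e-07, 1.34e-05 and 2.47e-05). *Fli1*, *Runx1*, *Gata2*, *Tal1*, *Lyl1*, *Lmo2* and *Erg* are known to bind together in human blood progenitors. Of the first 6, *Fli1*, *Gata2*, *Tal1* and *Lyl1* passed as lower, *Runx1* and *Lmo2* did not pass, and *Erg* had no row under its symbol. *Ldb1*, the adaptor of the GATA and TAL1 complex, stood at 34.4 ± 0.968 RPKM with DHC and 32.5 ± 0.197 RPKM in control (0.227), and *Tcf3*, a partner of TAL1, at 21.1 ± 0.676 RPKM with DHC and 19.1 ± 0.0979 RPKM in control (0.0716).

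Of 18 kinases, ligases and other genes that act on these factors, 15 were tested, 6 fell and 2 rose (median −0.10). *Pim1*, a kinase that phosphorylates Runx and Myb proteins, fell 3.32-fold to 6.30 ± 0.891 RPKM with DHC, against 20.9 ± 1.59 RPKM in control (limma adjusted p = 4.75e-05). *Src*, a tyrosine kinase, fell 2.35-fold (4.79e-05), and *Id2*, an inhibitor of helix-loop-helix factors, 2.26-fold (0.00211). *Smurf2*, a ubiquitin ligase, rose 1.305-fold (0.00368). *Stub1*, a ubiquitin ligase too, stood at 90.7 ± 9.22 RPKM with DHC and 85.4 ± 8.64 RPKM in control (0.511).

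Among genes known as targets of PU.1, 8 of 18 were tested, 4 fell and 1 rose (median −0.28). *Csf2rb*, the shared receptor chain of IL-3 and GM-CSF, fell 2.75-fold to 89.2 ± 9.35 RPKM with DHC, against 244.9 ± 16.2 RPKM in control (limma adjusted p = 2.41e-05). *Ptprc*, which encodes CD45, fell 1.85-fold (0.000148), *Tlr4* 2.24-fold (0.00332) and *Btk* 1.37-fold (0.000257). Of the chains of the IgE receptor, *Ms4a2* rose 1.15-fold to 368.5 ± 9.997 RPKM with DHC, against 320.9 ± 15.9 RPKM in control (0.0166), and *Fcer1a* (0.700) and *Fcer1g* (0.679) did not pass, while macrophage targets such as *Csf1r*, *Cd14* and *Lyz2* lay under the filter. Of 18 RUNX targets 7 were tested, 3 fell and 2 rose (median −0.25). *Cdkn1a*, a cell cycle inhibitor, fell 1.69-fold (4.09e-05), *Itga4*, an integrin, 1.77-fold (0.000202) and *Nfe2*, a globin and platelet gene factor, 2.26-fold (0.00173), while *Hmgb2* rose 1.19-fold (0.00477). *Tgfbr1* (0.0753) and *Pf4* (0.565) did not pass.

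Of 17 MYB targets 16 were tested, 8 fell and 2 rose (median −0.29). *Gfi1*, named above, *Birc3*, an apoptosis inhibitor (2.12-fold, limma adjusted p = 1.88e-05), *Myc* (11.6-fold, 3.78e-05) and *Kit*, the stem cell factor receptor (1.78-fold, 0.000108), led the MYB targets that fell by p-value. *Myc* stood at 0.476, 1.009 and 0.535 RPKM with DHC (38, 85 and 42 reads), against 6.81, 8.91 and 7.73 RPKM in control. Its ratio thus rests on low DHC values, and its log2 difference was −2.40. *Hspa8* (0.658) and *Gstm1* (0.764) did not pass. Of 22 ETS and FLI1 targets 11 were tested, 4 fell and 1 rose (median −0.01). *Tal1* and *Lyl1* (2.51-fold, 0.000637) were among them, with *Bcl2l1*, a survival gene, which fell 2.19-fold to 5.90 ± 0.477 RPKM with DHC, against 12.9 ± 1.13 RPKM in control (0.000174). *Tek*, an endothelial receptor, fell 1.26-fold (0.0148), a call that ended without DHC replicate 2 (0.0551), control replicate 2 (0.0572) or both libraries numbered 1 (0.0556). Of platelet genes that FLI1 is known to drive, 3 were tested and did not pass. *Gp1ba* stood at 2.13 ± 0.490 RPKM with DHC and 1.25 ± 0.322 RPKM in control (0.0607), with no overlap. *Pf4* stood at 1067 ± 105.5 RPKM with DHC and 1015 ± 87.8 RPKM in control (0.565) and *Itga2b* at 18.2 ± 1.59 RPKM with DHC and 15.9 ± 1.80 RPKM in control (0.161), and *Gp9* was near 0.

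**Figure D5:**
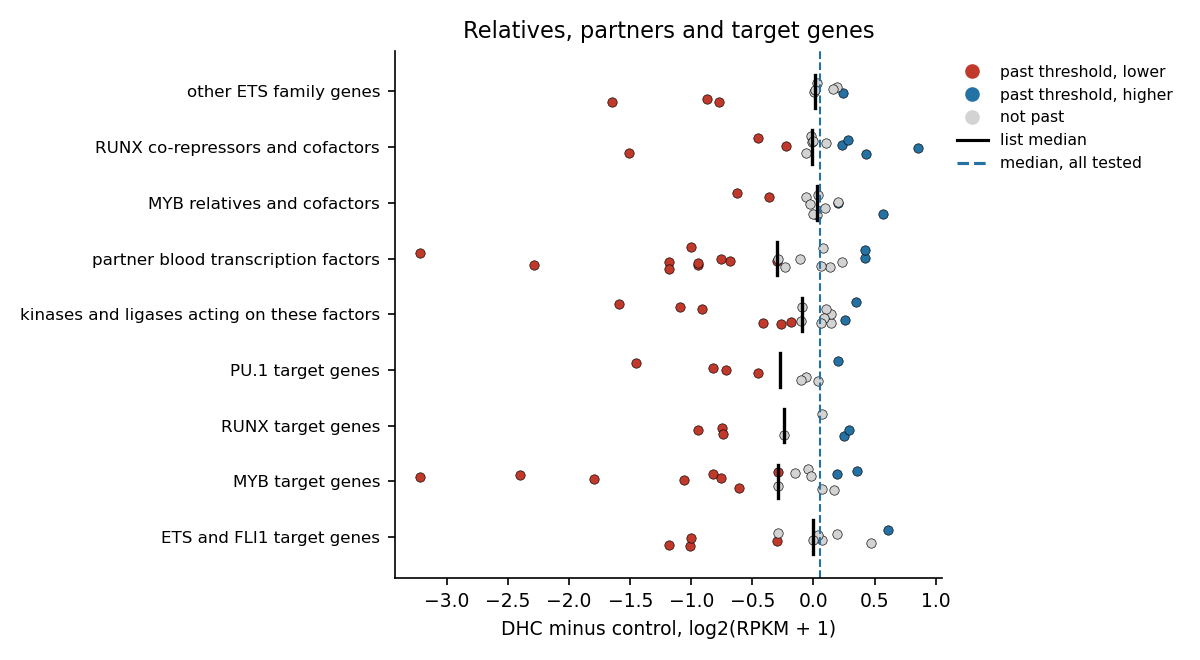
DHC minus control on the log2(RPKM + 1) scale for each tested gene of the 9 lists, red where lower and blue where higher at an adjusted p below 0.05 and grey otherwise, with the median of each list (black bar) and of all genes tested (dashed line). The partner factors reach below −3 with *Gfi1* and hold 10 red points of 19, while the ETS relatives and the RUNX and MYB cofactors have medians between −0.01 and 0.03.

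Of 18 mast cell marker genes 15 had a row, and 13 of them had a mean of at least 1 RPKM. *Tpsb2* and *Cma1* lay under the filter, and *Tpsab1*, *Mcpt2* and *Mcpt8* had no row under their symbols. The summed level of the mast cell markers was 1252 to 1285 RPKM with DHC and 1577 to 1647 RPKM in control. Of the mast cell markers 6 were lower (*Gata2*, *Il1rl1*, *Kit*, *Hdc*, *Slc18a2* and *Hpgds*) and *Ms4a2* was higher with DHC. Another 6 did not pass the threshold (*Fcer1a*, *Fcer1g*, *Cpa3*, *Mcpt1*, *Mitf* and *Srgn*). Over all genes tested 16.1% were lower and 18.4% higher. Without *Gata2* the sum was 1181 to 1214 RPKM with DHC and 1229 to 1314 RPKM in control. Sums over the lists of B cells, neutrophils and macrophages were at most 2.50 RPKM in any library, with *Cd14* and *Adgre1* near 0. Only 2 of 6 B cell genes and 3 of 7 neutrophil genes had a row, so these 2 sums cover part of their lists. Of 7 T cell markers 3 were expressed (sum 334.1 to 343.5 RPKM with DHC and 421.6 to 430.5 RPKM in control), mostly *Thy1*, and *Cd3e* at 41.8 ± 1.69 RPKM with DHC and 34.6 ± 2.85 RPKM in control, with *Cd3d*, *Cd3g*, *Cd4* and *Cd8a* near 0. Of 7 megakaryocyte markers 4 were expressed, mostly *Pf4* (sum 982.5 to 1195 RPKM with DHC and 945.5 to 1118 RPKM in control), and *Ppbp*, a platelet chemokine, was lower, at 2.21 ± 0.589 RPKM with DHC and 3.55 ± 0.3595 RPKM in control (limma adjusted p = 0.0286). The macrophage, erythroid, fibroblast and epithelial lists had 1 expressed gene each (*Cd68*, *Epor*, *Col3a1* and *Krt8*). Reads of the mitochondrial chromosome made up 3.91% to 4.14% of the DHC libraries and 3.34% to 3.53% of the control libraries. The part of these differences in the results above was not tested. Nothing in the labels says that replicates were separate cultures, and the errors then cover only how far these libraries varied, which can be technical variation.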

How the data were processed

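The submitters' processing notes name the build Rnor_6.0 and, with no order, edgeR 3.12.1, Subread 1.5.1 with featureCounts, and Trimmomatic 0.36. An aligner, annotation release and strand setting were not given in the sources used here. The deposited table holds RPKM per gene and library, as the values show: multiplied by exon length and depth they gave whole reads for 100% of genes within 0.01 read. The authors' RPKM are scaled by library totals only. Of its symbols 22 had been turned into dates and 1 identifier occurred more than once.

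Genes averaging 1 RPKM or more were tested with limma 3.58.1 (R 4.3.3, trended variance) on log2(RPKM + 1), with no term besides group and Benjamini-Hochberg adjustment over the genes tested; the threshold was an adjusted p of 0.05. Fold changes are ratios of mean RPKM, and log2 differences understate changes of low genes. With 3 reads as the floor, depth sets a limit of 0.0878 to 0.103 RPM, which covers counting error only.

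The members and lists were chosen with earlier results of these data known. From each list the text names up to 4 genes past the threshold with the lowest p and up to 2 not past it with the highest level; others were named after their values were seen, and some genes under the rule are not reported here. Alternatives were other scalings, pseudocounts (0.1, 0.5), filters, limma-voom on recovered reads, robust variance, a replicate block, a threshold of 0.01 and omission of libraries.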

Additional observations from a re-analysis of the deposited data

How the results depend on the processing

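The 5 genes *Fli1*, *Spi1*, *Ets1*, *Runx3* and *Myb* stayed lower and past the threshold of 0.05 under all 18 alternatives, with log2 differences of −1.41 to −1.26, −1.17 to −1.06, −0.77 to −0.66, −1.83 to −1.72 and −1.45 to −1.33. None of *Elf1*, *Etv6* and *Runx1* passed under any of them, and *Runx2* could be tested only with no filter on low values, where it did not pass. The count of these genes called higher, *Cbfb* alone, was 0 with median-of-ratios factors, trimmed means, the upper quartile or a threshold of 0.01, and 0 to 1 when a library was left out. The listed genes called higher, 17 as reported, were 11 with median-of-ratios factors, 11 with trimmed means, 7 at a threshold of 0.01 and 10 to 15 when a library was left out (10 without DHC replicate 2 or DHC replicate 3, 11 without control replicate 2). All genes called higher, 1968 as reported, were 1285 with trimmed means, 873 at a threshold of 0.01 (1076 lower) and 1201 to 1746 when a library was left out, the lowest without DHC replicate 2.

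Some genes that did not pass changed sign. With median-of-ratios factors and trimmed means the log2 differences were −0.038 and −0.048 for *Etv3*, −0.025 and −0.034 for *Mybbp1a*, −0.017 and −0.027 for *Psip1* and −0.018 and −0.028 for *Fcer1a*, and without both libraries numbered 1 that of *Mybbp1a* was −0.011. When a library was left out, the ranges were −0.0041 to 0.039 for *Etv3*, −0.032 to 0.0010 for *Sin3a*, −0.062 to 0.11 for *Mybbp1a*, −0.13 to 0.060 for *Fcer1g*, −0.017 to 0.11 for *Fcer1a*, −0.11 to 0.024 for *Hspa8* and −0.046 to 0.0045 for *Gstm1*. Scaling moved the median of all genes from 0.05 to 0.00 (median-of-ratios factors) or −0.00 (trimmed means), and the other causes were not tested.

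The labels do not say that equal replicate numbers mark a pairing, and they were not taken as one, since deviations from the group mean of same-numbered libraries correlated at 0.228, −0.0495 and 0.0828 for numbers 1, 2 and 3. Number 1 alone correlated best with its own number in the other group. The second principal component (12.8% of variance) placed same-numbered libraries side by side, at 11.5, −2.15 and −8.35 in the DHC group and 12.1, −2.49 and −10.7 in the control group, a hint from the data and not the design. With the replicate block 2426 genes were higher and 1907 lower, and 5 of the 10 factor genes were lower and 1 higher, as without it.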
